A study of Mus musculus with 15 samples.

Results

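F13a1, Ly86, Ctss, Ms4a6c, Lyz2, Clec4e, Adgre1 and Olr1 are 8 genes of the monocyte and macrophage lineage, and their levels are described here in myeloid progenitors of mice with mutant Cebpa. Each gene is represented by the probe set that carries its symbol alone, and all 8 had 1 such probe set on the array. They are 8 of the 19937 genes measured. The 15 samples, 1 animal and 1 sorted population each, form 5 groups of 3. They are GMP fl/p30, GMP fl/BRM2, GMP fl/+, preGM fl/p30 and preGM +/+, where the genotype is that of Cebpa. GMPs (granulocyte-macrophage progenitors) were sorted as lineage-, Sca1- and CD150-negative, CD41-negative, cKit-positive cells with FcgRII, and preGMs, their more immature precursors, as the same kind of cell without FcgRII and Endoglin. All groups, the controls included, carry the Mx1Cre transgene (spelled Mx1Ce for preGM +/+), all mice were female C57BL/6, and marrow was taken 3 weeks after conditional knockout. The labels state no age. The study's stated aim was to find genes deregulated in pre-leukemic progenitors.

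Cebpa encodes C/EBP alpha, a transcription factor that progenitors need to become GMPs. The fl allele is removed by Cre recombinase, which the Mx1 promoter drives in blood-forming and other interferon-responsive cells, so that the p30 allele (a short form of the protein that lacks part of its activation domain) or the BRM2 allele (a mutant of the DNA-binding basic region) remains. The control genotype was fl/+ for GMPs and +/+ for preGMs. Both fl/p30 populations were taken from 3 shared animals, so that replicates 1, 2 and 3 of GMP fl/p30 and preGM fl/p30 are the same mice. Monocytes arise from GMPs under the control of factors such as PU.1 and IRF8, and their precursors begin to transcribe genes for surface receptors, lysosomal enzymes and secreted proteins before they mature. Of the 8 genes, F13a1 encodes the A subunit of coagulation factor XIII, a transglutaminase that cross-links fibrin. Ly86 (MD-1) encodes the partner of the receptor RP105, which dampens the response to lipopolysaccharide. Clec4e (Mincle) encodes a C-type lectin that binds mycobacterial glycolipids and a nuclear protein of dead cells, Olr1 (LOX-1) a scavenger receptor for oxidized lipoprotein, and Adgre1 the macrophage surface antigen F4/80. Ctss and Lyz2 encode the lysosomal protease cathepsin S and lysozyme M, and Ms4a6c a 4-span membrane protein whose role is less well known.

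Values are log2 expression values, so that a difference of 1 is a doubling, and the median log2 value of all probe sets lay between 6.03 and 6.23 on each array. Levels below these medians are near background, and for a group there a log2 difference is given without a fold. Levels are never compared between genes, since each has its own probe set. Kit lay between 9.53 and 10.55 on all 15 arrays, and Fcgr3, a gene of the FcgR gate, was higher in GMPs than in preGMs by 2.35 in fl/p30 mice and by 2.98 in control mice (limma, adjusted p = 7.257e-05 and 4.589e-06). Fcgr2b, the FcgRII gene, was higher by 0.98 in fl/p30 mice and by 1.48 in control mice, and Eng (Endoglin) differed by -0.37 and -0.74. Both were called in control mice (limma, adjusted p = 0.00992 and 0.00639) and neither in fl/p30 mice (0.172 and 0.272). Among GMPs, Fcgr2b averaged 7.59 in GMP fl/p30 and 7.61 in GMP fl/BRM2, against 8.66 in GMP fl/+. Itga2b (CD41), gated out by its surface protein, averaged 7.95 in GMP fl/p30 and 6.90 in GMP fl/+ (1.04 ± 0.25, limma, adjusted p = 0.0244), a call lost without GMP fl/p30 replicate 1 or 2. Slamf1 (CD150) stayed below the array medians, between 4.01 and 5.10. The Cebpa probe set averaged 9.07, 8.64, 8.38, 9.09 and 8.57 in the groups as listed in the opening. Since the mutant alleles are transcribed too, that does not check the deletion. The number of arrays limits the precision. The p-values rest on the spread between animals within groups, pooled over all 5 groups rather than taken from the groups compared alone. That spread was uneven, with a median SD of the members from 0.18 in preGM +/+ to 1.29 in GMP fl/p30. The main model treats the 15 arrays as independent, although they come from 12 animals. Comparisons that use both fl/p30 groups thus leave out that these share animals, unless a block is named. Of 16 genes that mark mature tissue macrophages, 8 were below the array medians on every array.

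The promoters of 3 members are shown first, because F13a1 and Clec4e moved in all 3 mutant groups and Ms4a6c fell in preGMs. Each line is the 250 bases before the transcription start in RefSeq (GRCm38.p6), 5′ to 3′ on the gene's own strand: chr13:37050245-37050494 on the minus strand for F13a1 (the first of 2 starts), chr6:123289872-123290121 on the minus strand for Clec4e, and chr19:11469118-11469367 on the plus strand for Ms4a6c. Capitals mark matches, on either strand, to TTGCNNAA (C/EBP) or GAGGAA (PU.1), and another motif searched, GGAA followed after 2 bases by GAAA (a composite of IRF and ETS factors), had no match.
F13a1: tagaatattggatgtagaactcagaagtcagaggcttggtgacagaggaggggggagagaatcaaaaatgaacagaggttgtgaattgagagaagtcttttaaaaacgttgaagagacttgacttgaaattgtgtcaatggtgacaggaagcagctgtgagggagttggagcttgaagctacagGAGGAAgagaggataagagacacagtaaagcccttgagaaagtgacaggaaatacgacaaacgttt
Clec4e: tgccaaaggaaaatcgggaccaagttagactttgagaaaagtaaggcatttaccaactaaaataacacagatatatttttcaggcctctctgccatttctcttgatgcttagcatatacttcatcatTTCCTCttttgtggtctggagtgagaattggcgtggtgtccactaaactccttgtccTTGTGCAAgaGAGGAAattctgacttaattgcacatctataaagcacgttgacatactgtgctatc
Ms4a6c: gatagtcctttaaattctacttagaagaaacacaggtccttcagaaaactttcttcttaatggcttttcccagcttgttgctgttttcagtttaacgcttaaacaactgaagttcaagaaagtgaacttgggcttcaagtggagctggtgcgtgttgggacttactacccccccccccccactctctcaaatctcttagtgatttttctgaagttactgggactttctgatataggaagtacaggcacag
F13a1 holds GAGGAA 66 bases before the first of its starts, and the window of its second start holds none of the 3 motifs. Clec4e holds TTGTGCAA, the C/EBP letters read on the other strand, 66 bases before its start, with GAGGAA at 56 and its reverse complement TTCCTC at 123. No motif overlapped another. Ms4a6c holds none of the 3 motifs. The 7 members with a promoter in the RefSeq table have 8 windows. The C/EBP letters were in 1 of the 8 windows and GAGGAA in 4 (F13a1, Ctss, Clec4e and Olr1), against 9.56% and 23.3% of all 32851 promoter windows. The composite was in 0 of the 8 windows and in 2.3% of all windows. A match is a run of letters and was not tested as a binding site.

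**Figure D1:**
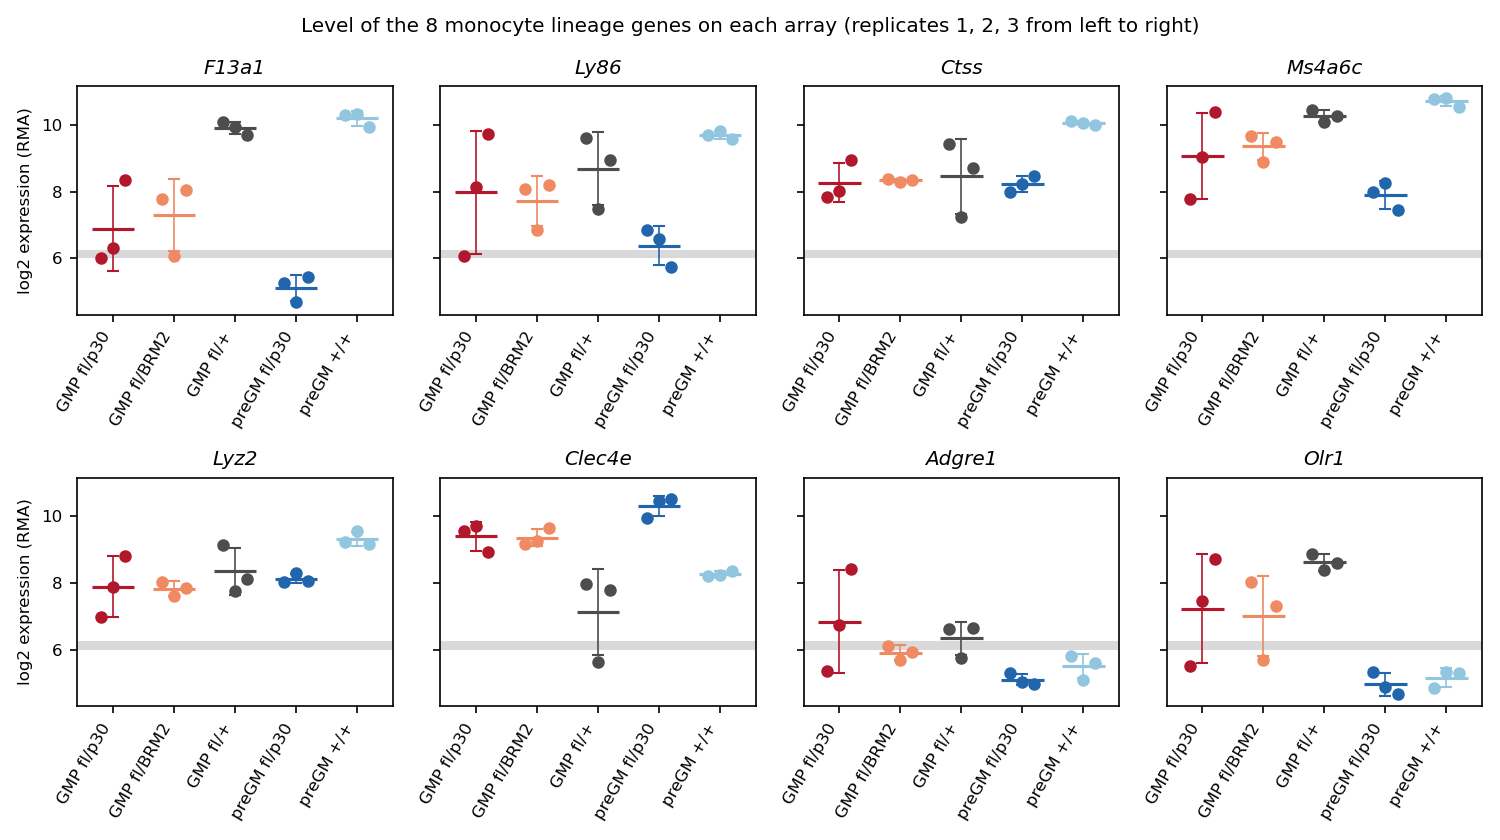
Log2 expression of the 8 genes (y axis) on each array by group (x axis), points for arrays in replicate order, wide bars for group means, error bars for 1 SD (n = 3) and the grey band for the range of the array medians, 6.03 to 6.23. F13a1 is below the band on all 3 preGM fl/p30 arrays and at 9.71 or above on all 6 control arrays, Clec4e is higher in each mutant group than in its control, and the 3 GMP fl/p30 arrays are spread over 2.34 for F13a1.

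In preGMs with the p30 allele, 4 of the 8 genes fell (F13a1, Ly86, Ms4a6c and Ctss) and Clec4e rose, while Lyz2, Adgre1 and Olr1 did not pass the test. Among all genes 1.03% passed lower and 0.647% higher (limma, adjusted p under 0.05), and the median difference of the 8 genes was -1.50, beside 0.03 over all genes. F13a1 was at 5.25, 4.69 and 5.43 in preGM fl/p30 arrays, against 10.31, 10.34 and 9.94 in preGM +/+ arrays. All 3 mutant values were below the array medians, and all 3 control values were more than 3 above them. The difference of -5.07 ± 0.54 (SE, limma, adjusted p = 0.000306) was the lowest of all 19937 genes, in the gene of the factor XIII transglutaminase.

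Ms4a6c was at 7.98, 8.26 and 7.46 in preGM fl/p30 arrays, against 10.78, 10.80 and 10.53 in preGM +/+ arrays. The groups were well apart, and the gene was 6.98-fold lower (-2.80 ± 0.45, adjusted p = 0.00537). Ly86, the RP105 partner, was at 6.85, 6.58 and 5.73 in preGM fl/p30 arrays, against 9.71, 9.83 and 9.58 in preGM +/+ arrays. Its level fell on the log2 scale by more than that of any member but F13a1 (-3.32 ± 0.72, limma, adjusted p = 0.0329), and the mutant arrays reached down to the array medians. Ctss was at 7.98, 8.24 and 8.46 in preGM fl/p30 arrays, against 10.12, 10.05 and 9.99 in preGM +/+ arrays. The cathepsin S gene thus kept a level well above the array medians in the mutant, 3.55-fold lower than in the control (-1.83 ± 0.40, adjusted p = 0.0347).

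Clec4e was the only member to rise. It was at 9.95, 10.47 and 10.51 in preGM fl/p30 arrays, against 8.21, 8.25 and 8.37 in preGM +/+ arrays, 4.09-fold higher (2.03 ± 0.44, limma, adjusted p = 0.0336). The Mincle gene thus moved against the other called members in the same cells. Lyz2 was at 8.05, 8.30 and 8.06 in preGM fl/p30 arrays, against 9.22, 9.55 and 9.17 in preGM +/+ arrays. These groups did not overlap either, but the difference of -1.17 ± 0.38 missed the threshold (adjusted p = 0.170), with a 95% interval of -1.99 to -0.36. Fitted on the 6 preGM arrays alone it passed (adjusted p = 0.000938). Groups did not overlap for 5 members lower and 1 higher, and for 12.8% and 12.4% of all genes. The near-identical gene Lyz1 lay between 6.38 and 6.97 on all arrays, and how far the probes of the 2 lysozyme genes capture each other's transcripts is uncertain. Adgre1 (4.99 to 5.30 in preGM fl/p30 and 5.11 to 5.81 in preGM +/+) and Olr1 (4.68 to 5.35 and 4.85 to 5.35) were below the array medians in both preGM groups, where no difference could be measured.

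The calls of F13a1 and Ms4a6c held without any one of the 15 arrays (adjusted p up to 0.00374 and 0.0354). Those of Ly86, Ctss and Clec4e each missed the threshold without any one of the 6 preGM arrays (adjusted p up to 0.141, 0.155 and 0.129), which leaves 2 members lower and 0 higher, and that of Ctss also without GMP fl/BRM2 replicate 3. Ly86 was at an adjusted p of 0.0508 with the animal as a random replicate block and at 0.0649 with trend and robust moderation. With each array centred on its median, Ctss and Clec4e were at 0.0508 and 0.054. With fewer arrays all differences kept their sign, and they lay between -3.55 and -2.99 for Ly86, -1.95 and -1.71 for Ctss and 1.93 and 2.21 for Clec4e. In sorted populations, fewer cells of a type and less RNA per cell cannot be told apart.

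Related genes moved in part with the members in preGMs. Of 28 other monocyte surface and effector genes measured, 7 fell, 1 rose (S100a4, by 1.16, named after its value was seen) and 20 did not pass, with a median of -0.49. Those named by size were Emb (-2.49 ± 0.43, a partner of lactate transporters), Mpeg1 (-2.42 ± 0.42, the pore-forming perforin-2), Csf1r (-2.04 ± 0.46, the receptor for the macrophage growth factor M-CSF) and Pld4 (-1.59 ± 0.37, an endolysosomal exonuclease), with limma adjusted p between 0.0101 and 0.0461. With any of the 6 preGM arrays left out, 1 to 4 fell, and S100a4 stayed called only where preGM fl/p30 replicate 2 was the one left out. The count was 4 with replicate 2 of GMP fl/p30 or replicate 3 of GMP fl/BRM2 left out, and 12 with replicate 1 or replicate 3 of GMP fl/p30 left out. Over all genes, the lower calls numbered 289 and 251 without GMP fl/p30 replicate 1 and replicate 3, in place of 205. Of 11 monocyte transcription factors, Irf8 alone fell (-2.12 ± 0.30, adjusted p = 0.0027). A second one was called with replicate 1 or replicate 3 of GMP fl/p30, or replicate 2 of GMP fl/BRM2, left out. Of 15 Ms4a genes other than Ms4a6c, 8 were below the array medians on every array. Ms4a4c fell by 1.76 and Ms4a6b fell by 1.51, and the other 13 did not pass. Only 1 or 0 of the 2 were called without any preGM array other than preGM +/+ replicate 3. Of 16 C-type lectins other than Clec4e, Clec12a, an inhibitory receptor of myeloid cells, fell by 2.16 and the other 15 did not pass; 9 of the 16 were below the array medians on every array. That call was lost without any preGM array other than preGM fl/p30 replicate 1, and 2 lectins were called lower with replicate 1 or replicate 2 of GMP fl/+ left out.

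Of the genes that work beside Ly86 in lipopolysaccharide sensing, Irak3, an inhibitor of the pathway, fell by 0.78 and 7 of 8 did not pass. Among 19 cathepsins and antigen processing genes other than Ctss, Ctsh fell by 2.72 and Lgmn, the asparagine endopeptidase legumain, by 0.92, while Ctsw rose by 1.40 (limma, adjusted p between 0.024 and 0.041). Each of these 4 calls was lost when 1 preGM array or another was left out: Irak3 for any but preGM fl/p30 replicate 1, and of the cathepsin genes at most 1 of the 2 falls was still called for any preGM array. The 2 falls became 4 for GMP fl/+ replicate 1 and 0 for its replicate 3 and for replicates 1 and 3 of GMP fl/BRM2.

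Beside the members, markers of other cells moved in the same preGM arrays, among them those of 14 neutrophil granule genes. The mean deviation of the 14 from each gene's own mean was -1.20, -1.24 and -1.16 in preGM fl/p30 arrays, against 0.16, 0.97 and 0.11 in preGM +/+ arrays. Of the 14, 3 fell (Ngp, Mmp8 and Ltf), 0 rose and 2 were below the array medians on every array. At most 1 fell with any preGM fl/p30 array, or preGM +/+ replicate 2, left out, and 5 and 8 fell with replicates 1 and 3 of GMP fl/p30 left out. That of the 16 mature macrophage markers was -0.13, -0.13 and -0.06 in preGM fl/p30 arrays and -0.24, -0.12 and -0.09 in preGM +/+ arrays, with none called in either direction. The 10 stem and multipotent progenitor markers were at 0.17, 0.51 and 0.44 in preGM fl/p30 arrays, against 0.98, 0.71 and 0.84 in preGM +/+ arrays. Of these, 3 fell (Hlf, Flt3 and Hoxa9), 0 rose and 3 were below the array medians on every array, and 3 or 4 fell with any one array left out. The 14 dendritic cell markers were at -0.06, -0.02 and 0.12 in preGM fl/p30 arrays, against 0.39, 0.38 and 0.35 in preGM +/+ arrays. Flt3, which is on this list too, fell with any array left out and Itgax rose, a call lost without any preGM array other than preGM +/+ replicate 1. The 9 B lymphoid markers measured were at -0.05, 0.36 and 0.13 in preGM fl/p30 arrays, against -0.12, -0.0 and 1.69 in preGM +/+ arrays. Replicate 3 of preGM +/+ thus stood apart for this list, of which 0 rose and 0 fell. The part of these cells in the members' differences was not tested.

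**Figure D2:**
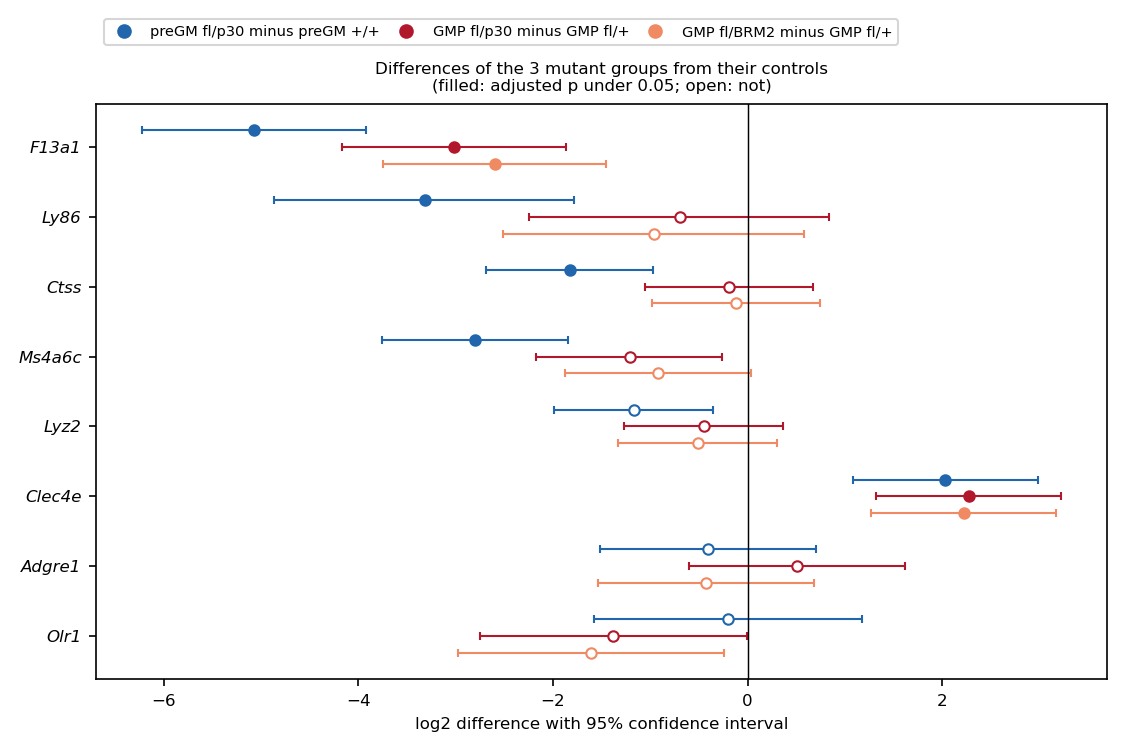
Log2 difference of each gene in the 3 mutant groups from the control of the same stage (x axis, points with 95% confidence intervals of the limma model), filled where the adjusted p was under 0.05. F13a1 is filled and left of 0 and Clec4e filled and right of 0 in all 3 comparisons, while Ly86, Ctss and Ms4a6c are filled in preGMs alone.

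In GMPs with the p30 allele, F13a1 fell and Clec4e rose, and the other 6 members did not pass the test. Among all genes 1.37% passed lower and 4.69% higher, and the members' median difference was -0.58, beside -0.04 over all genes. F13a1 was at 6.01, 6.31 and 8.35 in GMP fl/p30 arrays, against 10.08, 9.93 and 9.71 in GMP fl/+ arrays. Even the highest mutant array, that of replicate 3, was more than 1 below the lowest control array. F13a1 was 8.11-fold lower (-3.02 ± 0.54, limma, adjusted p = 0.004). Clec4e was at 9.57, 9.72 and 8.92 in GMP fl/p30 arrays, against 7.98, 5.64 and 7.79 in GMP fl/+ arrays. The second control array stood more than 2 below the other two for this lectin gene. The gene was 4.82-fold higher in fl/p30 (2.27 ± 0.44, adjusted p = 0.00742), and 1.52 higher on the log2 scale without that array. Both calls held without any one array (adjusted p up to 0.0267 for F13a1 and 0.0408 for Clec4e), and both were lost in a fit of the 6 arrays of these groups alone (adjusted p = 0.077 and 0.183).

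The other members of this comparison overlapped between groups. Ms4a6c was at 7.79, 9.04 and 10.38 in GMP fl/p30 arrays, against 10.46, 10.10 and 10.28 in GMP fl/+ arrays (-1.21 ± 0.45, limma, adjusted p = 0.136). Olr1, the oxidized lipoprotein receptor gene, was at 5.51, 7.48 and 8.73 in GMP fl/p30 arrays, against 8.87, 8.39 and 8.60 in GMP fl/+ arrays (-1.38 ± 0.64, adjusted p = 0.247). In both genes the control arrays lay close together and the mutant arrays spanned more than 2. Without GMP fl/p30 replicate 3 both were called lower, Ms4a6c at -1.87 and Olr1 at -2.12 (adjusted p = 0.00285 and 0.0406), which makes 3 members lower in place of 1. Over all genes 540 were then called lower in place of 274. Ly86 was at 6.06, 8.14 and 9.73 in GMP fl/p30 arrays, against 9.62, 7.48 and 8.94 in GMP fl/+ arrays, and both ranges were wide (-0.70 ± 0.72, adjusted p = 0.656). Its sign turned without GMP fl/p30 replicate 1.

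Among the lysosomal members, Ctss was at 7.85, 8.02 and 8.94 in GMP fl/p30 arrays, against 9.43, 7.23 and 8.72 in GMP fl/+ arrays. The difference was -0.19 with a 95% interval of -1.05 to 0.67, and its sign turned without GMP fl/+ replicate 1 or without GMP fl/p30 replicate 1. Lyz2 was at 6.98, 7.89 and 8.82 in GMP fl/p30 arrays, against 9.15, 7.77 and 8.13 in GMP fl/+ arrays, and the groups overlapped (-0.45 ± 0.38, limma, adjusted p = 0.572). Adgre1, the F4/80 gene, was at 5.37, 6.75 and 8.43 in GMP fl/p30 arrays, against 6.62, 5.77 and 6.65 in GMP fl/+ arrays. The value of replicate 3 was the highest of all 15 arrays for this gene, and the difference was 0.51 with it and -0.28 without it, neither past the test.

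Of the monocyte surface and effector genes, 3 rose and 1 fell in GMP fl/p30. S100a4 (a calcium-binding protein) rose by 1.70, Cx3cr1 (the fractalkine receptor) by 1.34 and Ly6e by 0.57, and Ifitm6 fell by 1.04 (limma, adjusted p between 0.000709 and 0.0248). Only 1 rose with replicate 2 of GMP fl/+ or replicate 1 of GMP fl/p30 left out. The fall of Ifitm6, whose means were below the array medians, was lost with replicates 2 and 3 of GMP fl/+ and replicates 1 and 2 of GMP fl/p30, each left out alone. With replicate 3 of GMP fl/p30 left out, 10 of the 28 fell. Irf8 (-1.72 ± 0.30) and Klf4 (-0.70 ± 0.17) fell among the 11 transcription factors, and 1 of the 2 was still called with replicate 1 or replicate 2 of either group left out. In the lipopolysaccharide receptor complexes, to which Ly86 belongs, Cd180 (RP105 itself) rose by 2.0 and Ly96 (MD-2) by 1.77, and 6 of 8 did not pass. Ly96 was at 7.09, 5.82 and 5.79 in GMP fl/p30 arrays, and its GMP fl/+ arrays (4.89, 3.73 and 4.77) were below the array medians. Cd180 averaged 11.0 in GMP fl/p30 and 9.0 in GMP fl/+, while its partner gene Ly86 averaged 7.98 in GMP fl/p30 and 8.68 in GMP fl/+. Of 19 other cathepsins and antigen processing genes, Ctsw rose by 2.58, Ctse by 1.92 and Ctso by 0.83, none fell, and 8 rose with replicate 1 of GMP fl/+ left out. Over all genes 2152 were then called higher in place of 935.

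In GMPs with the BRM2 allele, the same members were called: F13a1 fell and Clec4e rose. Among all genes 0.642% passed lower and 1.89% higher, and the members' median was -0.72, beside -0.02 over all genes. This comparison shares its 3 control arrays with that of the p30 allele. F13a1 was at 7.77, 6.08 and 8.06 in GMP fl/BRM2 arrays, 6.07-fold below the GMP fl/+ arrays given above (-2.60 ± 0.54, limma, adjusted p = 0.0187). Clec4e was at 9.17, 9.26 and 9.65 in GMP fl/BRM2 arrays, 4.67-fold above them (2.22 ± 0.44, adjusted p = 0.0161). All 3 mutant arrays lay apart from the 3 controls for both genes. The call of F13a1 was lost without GMP fl/+ replicate 2 or GMP fl/BRM2 replicate 2, and that of Clec4e without GMP fl/BRM2 replicate 2 or 3 (adjusted p up to 0.11 and 0.0816). Without GMP fl/+ replicate 2, Clec4e was at 1.48. In a fit of the 6 arrays of these groups alone, neither gene was called (adjusted p = 0.0834 and 0.20).

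Ms4a6c (9.68, 8.90 and 9.50) and Olr1 (8.03, 5.69 and 7.32) were below all 3 GMP fl/+ arrays in GMP fl/BRM2, but missed the threshold (-0.92 ± 0.45 and -1.61 ± 0.64, limma, adjusted p = 0.355 and 0.242). With F13a1, that makes 3 members whose groups do not overlap with BRM2 lower, and 8.51% of all genes did so. For Clec4e, higher, the share of all genes was 6.74%. The other members overlapped with their control. In GMP fl/BRM2 arrays Ly86 was at 8.08, 6.85 and 8.21, Ctss at 8.38, 8.30 and 8.34, and Lyz2 at 8.05, 7.61 and 7.85. Ctss thus varied least among these arrays, by 0.08. Adgre1, at 6.13, 5.70 and 5.93, was at or below the array medians.

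Among related genes in GMP fl/BRM2, S100a4 rose by 0.95 and the chemokine gene Ccl9 by 0.89, Cd180 by 1.63, Ly96 by 1.45, Ctse by 1.88 and the scavenger receptor gene Cd36 by 1.32, and Irf8 fell by 1.44 (limma, adjusted p between 0.00735 and 0.0488). For Cd36, both group means, 5.41 and 4.09, were below the array medians. Ly96 was at 5.48, 6.48 and 5.78 in GMP fl/BRM2 arrays, and its GMP fl/+ arrays (4.89, 3.73 and 4.77) were below the medians. With replicate 2 of GMP fl/BRM2 left out, 0 monocyte surface genes, lipopolysaccharide receptor genes or cathepsin genes rose and 0 transcription factors fell. Over all genes 114 were then called higher in place of 377, and 20 lower in place of 128. With replicate 1 of GMP fl/+ left out, 4 monocyte surface genes, 3 lipopolysaccharide receptor genes and 6 cathepsin genes rose. Over all genes the higher calls then numbered 1524. Over the other arrays left out, 1 to 3 monocyte surface genes, 1 or 2 lipopolysaccharide receptor genes and 1 to 3 cathepsin genes rose. The count of transcription factors that fell was 0 without replicate 2 and 2 without replicate 3 of GMP fl/+.

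Set against each other, GMP fl/p30 and GMP fl/BRM2 gave 0 calls among the 8 members, with 0.00502% of all genes called in either direction (limma). At an unadjusted p under 0.05 there were 0 members and 688 of all 19937 genes. The difference of p30 minus BRM2 was -0.42 for F13a1, with a 95% interval of -1.56 to 0.73, and 0.05 for Clec4e, with an interval of -0.90 to 1.0.

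Between the control groups, which differ in genotype as well as stage, Olr1 rose and Ctss fell, and the other 6 members did not pass. Among all genes 4.19% passed higher and 6.02% lower. With each array centred on its own median those calls were 360 higher and 1243 lower in place of 836 and 1200. Olr1 was at 8.87, 8.39 and 8.60 in GMP fl/+ arrays, against 4.85, 5.35 and 5.31 in preGM +/+ arrays, below the array medians (3.45 ± 0.64, limma, adjusted p = 0.00589). The gene of the oxidized lipoprotein receptor was the only member called higher at this step. Adgre1, also below the array medians in preGM +/+, averaged 6.35 in GMP fl/+ and 5.51 in preGM +/+, and the groups overlapped (0.83 ± 0.52, adjusted p = 0.278). Ctss was at 9.43, 7.23 and 8.72 in GMP fl/+ arrays, against 10.12, 10.05 and 9.99 in preGM +/+ arrays (-1.59 ± 0.40, adjusted p = 0.0261). The second GMP array was the lowest, and without it the difference was -0.98 and not called. The Ctss call was also lost without any one preGM +/+ array. With replicate 1 of GMP fl/+ left out, Lyz2 and Clec4e were called lower too, which makes 3 members. Over all genes the lower calls then numbered 2685 in place of 1200. F13a1 and Ms4a6c were far above the array medians at both stages, with differences of -0.29 (interval -1.43 to 0.86) and -0.42 (interval -1.38 to 0.53).

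Among the C-type lectins, 3 rose with Olr1 at this step: Clec5a by 3.16, and Clec4a2 and Clec4b2, which lie in the same gene cluster as Clec4e, by 3.05 and 2.78. In preGM +/+ arrays Clec4a2 (4.59 to 5.31) and Clec4b2 (5.20 to 5.28) were below the array medians, and Clec5a (6.09, 5.48 and 5.68) was at or below them. Clec4d, whose product pairs with Mincle, was lower by 0.76 (limma, adjusted p between 0.022 and 0.0413). The 3 rises were lost with any preGM +/+ array left out, and 1 was left without GMP fl/+ replicate 2. Clec4d, near the array medians at 5.57 in GMP fl/+ and 6.33 in preGM +/+, lost its call with each of 8 arrays left out in turn. In the genes around Ly86, Cd180 fell by 1.10 and Ly96 by 1.74, and Cd14 rose by 0.69, and these calls too depended on single arrays. The lower group was below the array medians for Ly96 (4.89, 3.73 and 4.77 in GMP fl/+) and for Cd14 (5.47, 5.45 and 5.42 in preGM +/+). Among the Ms4a genes Ms4a3, a marker of GMPs in mice, rose by 2.22 and Ms4a4c fell by 1.44 (adjusted p = 0.00439 and 0.0207). A second one rose without replicate 1 of GMP fl/p30, replicate 1 of GMP fl/+ or replicate 2 of preGM +/+. None fell without replicate 1 or 2 of preGM +/+ or replicate 2 of GMP fl/+, and 2 fell without replicate 1 of GMP fl/+.

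From preGM fl/p30 to GMP fl/p30, no member passed (limma, adjusted p from 0.141 for Olr1 up), and 0.642% of all genes were called. The median difference was 1.38, beside 0.03 over all genes. An unadjusted p under 0.05 was reached by 5 members and by 2475 of all 19937 genes. Olr1 (2.27 ± 0.64), F13a1 (1.76 ± 0.54) and Adgre1 (1.74 ± 0.52) were higher on all 3 GMP arrays than on any preGM array, as 9.44% of all genes were. Since both stages come from the same animals, the animal can serve as a block. With it as a random replicate block F13a1 and Olr1 were called higher (limma, adjusted p = 0.0457 each), and with it as a fixed block neither was (adjusted p = 0.117 and 0.185). Over all genes 366 were called higher with the random block and 30 with the fixed block, in place of 71. Without GMP fl/p30 replicate 1, 3 members were called higher, Ms4a6c, Adgre1 and Olr1. Over all genes 88 were then called higher in place of 71. For Ctss and Lyz2 the differences were 0.05 and -0.24, with intervals of -0.82 to 0.91 and -1.06 to 0.57.

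Whether the p30 difference depended on the stage was tested as the GMP difference minus the preGM difference. The controls differ in genotype too, fl/+ for GMPs and +/+ for preGMs, so stage and control genotype cannot be told apart here. No member passed, and 0.00502% of all genes did (limma). Unadjusted p was under 0.05 for 4 members and for 2616 of all 19937 genes. The 4 members all had a smaller fall in GMPs: Ly86 (2.62 ± 1.02), F13a1 (2.05 ± 0.76), Ctss (1.64 ± 0.57) and Ms4a6c (1.59 ± 0.63), with adjusted p between 0.266 and 0.327. For Clec4e, which rose at both stages, the difference was 0.24 ± 0.63, with an interval of -1.11 to 1.58. Without GMP fl/+ replicate 1, Ctss was called at 2.12 (limma, adjusted p = 0.0198), and over all genes 1482 were called in place of 1.

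Over the 5 groups, 4 members share 1 order at its ends. F13a1, Ly86, Ctss and Ms4a6c had their highest mean in preGM +/+ (10.19, 9.71, 10.06 and 10.71), GMP fl/+ next (9.91, 8.68, 8.46 and 10.28) and their lowest in preGM fl/p30 (5.12, 6.38, 8.23 and 7.90). In between stood GMP fl/p30 (6.89, 7.98, 8.27 and 9.07) and GMP fl/BRM2 (7.30, 7.71, 8.34 and 9.36), which overlapped in each. Neighbours in the order also overlapped between the control groups for F13a1 and Ly86, between GMP fl/+ and both GMP mutants for Ly86 and Ctss, and between GMP fl/p30 and preGM fl/p30 for Ctss and Ms4a6c. Clec4e ran nearly the other way, with 10.31 in preGM fl/p30, 9.40 in GMP fl/p30, 9.36 in GMP fl/BRM2, 8.28 in preGM +/+ and 7.14 in GMP fl/+. Of its neighbours in that order the GMP mutants alone overlapped. Lyz2 was highest in preGM +/+ (9.31), and its other groups (8.35 in GMP fl/+, 8.14 in preGM fl/p30, 7.90 in GMP fl/p30 and 7.84 in GMP fl/BRM2) overlapped from one to the next. Olr1 was ordered by stage, with 8.62 in GMP fl/+, 7.24 in GMP fl/p30 and 7.01 in GMP fl/BRM2, against 4.97 in preGM fl/p30 and 5.17 in preGM +/+. For Adgre1 every pair of neighbours overlapped, between 6.85 in GMP fl/p30 and 5.11 in preGM fl/p30.

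**Figure D3:**
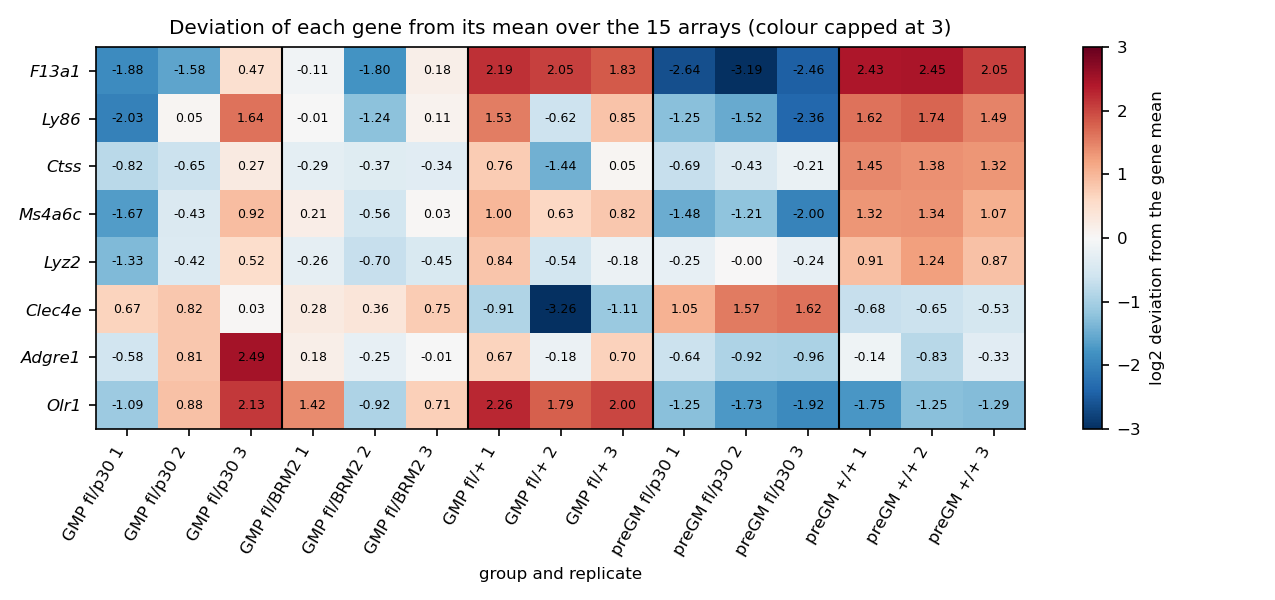
Deviation of each gene (rows) from its mean over the 15 arrays (columns, by group and replicate), in log2 units, with colour capped at 3. In GMP fl/p30, 7 of the 8 rows are higher in replicate 2 than in replicate 1 and higher again in replicate 3, and in GMP fl/+ replicate 2 Clec4e is 3.26 below its mean.

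Within the GMP groups, most members varied together from array to array. The mean deviation of the 8 genes was -1.09, -0.06 and 1.06 in replicates 1, 2 and 3 of GMP fl/p30, and 7 of the 8 genes followed that order of animals, Clec4e being the exception. The same animals' preGMs were at -0.89, -0.93 and -1.07 and showed no such spread. There replicates 1, 2 and 3 were the lowest for 3, 1 and 4 members. GMP fl/BRM2 arrays were at 0.18, -0.68 and 0.12, with replicate 2 the lowest for 7 of 8 genes. GMP fl/+ arrays were at 1.04, -0.19 and 0.62, with replicate 1 the highest and replicate 2 the lowest for 7 of 8 genes each, and preGM +/+ arrays were at 0.64, 0.68 and 0.58. The median within-group SD of the members was 1.29 in GMP fl/p30, 0.33 in GMP fl/BRM2, 0.61 in GMP fl/+, 0.33 in preGM fl/p30 and 0.18 in preGM +/+. Over all genes it was between 0.12 and 0.20, and 99.7% of all genes had a lower SD than the members' median in GMP fl/p30. The neutrophil granule markers, at -0.99, -0.46 and 0.70 in GMP fl/p30, 0.75, -0.67 and -0.02 in GMP fl/BRM2 and 1.40, 0.88 and 0.75 in GMP fl/+, followed the same order in GMP fl/p30, and they are given beside the members because 4 of the 14 fell in GMP fl/p30 and 1 (Camp) in GMP fl/BRM2. Those counts were 0 with replicate 1 or 2 of GMP fl/p30 left out, 7 with replicate 3, and 1 and 2 with replicates 2 and 3 of GMP fl/+ for p30, and 0 to 3 over all arrays left out for BRM2. The mature macrophage markers, at 0.10, -0.06 and 0.12 in GMP fl/p30, did not follow the order of the members.

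Other marker lists also differed between the GMP groups. The 7 erythroid markers were at 0.63, 0.21 and 0.03 in GMP fl/p30 and -0.17, 0.78 and 0.56 in GMP fl/BRM2, against -0.71, -0.60 and -0.87 in GMP fl/+. In GMP fl/p30 their order of animals was the reverse of the members', and in GMP fl/BRM2 replicate 2 was the highest. Of the 7, 3 rose with p30 (Car1, Gata1 and Alas2) and 3 with BRM2 (Car1, Gata1 and Ermap), and 0 fell. Car1, a carbonic anhydrase gene, was higher by 3.26 in GMP fl/p30 and by 3.30 in GMP fl/BRM2. Of 10 mast cell, basophil and eosinophil markers, 3 rose (Cpa3, Cma1 and Gata2) and 4 fell (Mcpt8, Prss34, Hdc and Prg2) with p30, and 3 rose and 2 fell with BRM2, where 1 fell without GMP fl/BRM2 replicate 2. Of 9 T and NK cell markers, 4 rose with p30 (Lat, Cd7, Cd3g and Klrd1) and 1 with BRM2 (Lat; 2 without preGM fl/p30 replicate 3). The 4 became 2 without replicate 3 of GMP fl/+ or without any GMP fl/p30 array. Of the 9, 4 were below the array medians on every array, Cd3g and Klrd1 among them. The part of these marker lists in the members' values was not tested.

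**Figure D4:**
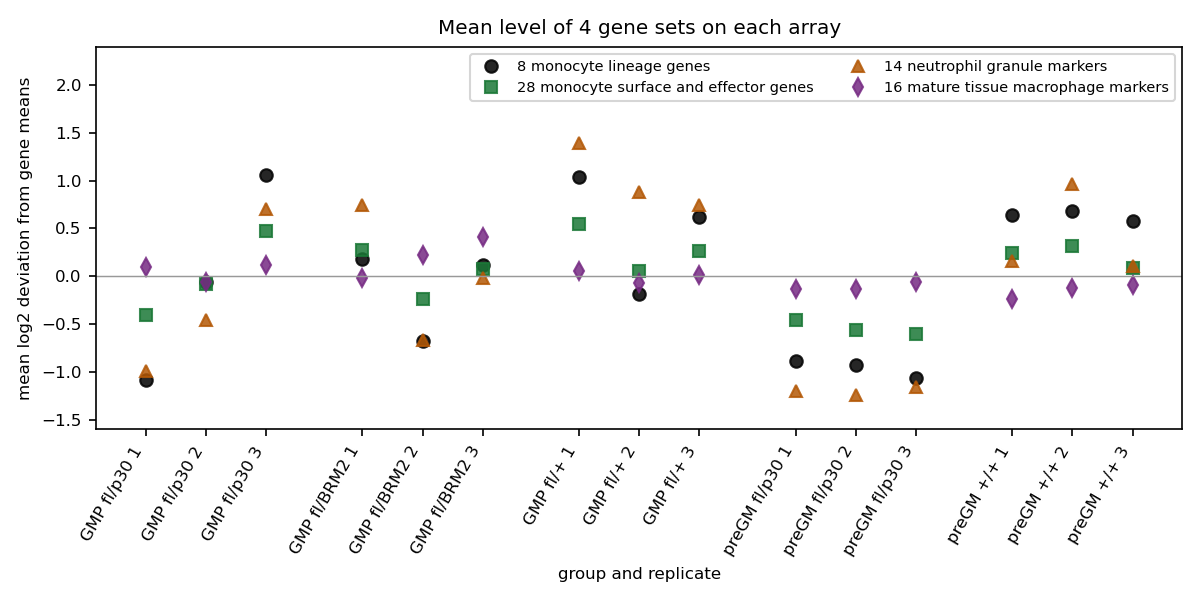
Mean log2 deviation (y axis) of the 8 members and of 3 gene lists on each array (x axis, by group and replicate). The 8 members lie between -1.09 and 1.06 in GMP fl/p30 and between 0.58 and 0.68 in preGM +/+, and the 16 mature macrophage markers between -0.24 and 0.41 on all arrays.

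As a description over the 15 arrays, which share animals and groups, the 21 pairs of members without Clec4e had a median Pearson r of 0.61 (from -0.21 to 0.94), and 0.79 (from 0.38 to 0.91) after each group's mean was taken out. The 7 pairs with Clec4e had a median of -0.49 (from -0.82 to -0.13), and of 0.03 within groups. The genes whose profile was most like the mean of the 8 members were Rab7b (r = 0.952), Stom (0.951), Abcd2 (0.95), Ctsh (0.943) and Sirpa (0.941), followed by Rab27a, Atp6v1b2, Emb, Csf1r and Scarb1 (0.941 to 0.925). For single members the nearest genes were Cask for F13a1 (0.958), Ms4a6b for Ly86 (0.942), Ipo5 for Ctss (0.942) and Emb for Ms4a6c (0.961). They were Scpep1 for Lyz2 (0.945), Ddx58, which encodes the RNA sensor RIG-I, for Clec4e (0.954), Il22ra2 for Adgre1 (0.872) and Mgam for Olr1 (0.975). Clec4e (5.64) and Ddx58 (5.65) both had their lowest value in GMP fl/+ replicate 2, and their r without that array was not computed.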

How the data were processed

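RNA of sorted cells (20 ng, per the labels' protocols) was amplified as cDNA, biotin-labelled and hybridised to Affymetrix Mouse Gene 1.0 ST arrays. The deposited values are log2 expression values, and affy and RMA (background correction, quantile normalization and probe set summary) stand in the submitters' processing notes, without versions or filters. Of 34760 probe sets, 21640 carry 1 gene symbol in the platform annotation. They represent 19937 genes, and for the 954 with several probe sets the brightest on average was used. The 5 group means were fitted to all 15 arrays in limma 3.58.1 under R 4.3.3. Moderation by eBayes left 10 residual and 4.24 prior degrees of freedom. Within each of 7 comparisons the Benjamini-Hochberg adjustment covered all genes, with calls at an adjusted p under 0.05. The model was tested on simulated data. Differences are log2 differences, the first group minus the second, with ± as the SE. All 8 members are named, up to 4 called genes per list, and the genes most like the members by Pearson r, without clones and predicted genes. The members and gene lists were chosen with earlier results of these data known. The fl/p30 groups of both stages share animal numbers, and their deviations from the group means correlated across genes at 0.334 (168), 0.32 (986) and 0.116 (988). The spread within groups (root mean square SD) was 0.269 in GMP fl/p30, 0.195 in GMP fl/BRM2, 0.319 in GMP fl/+, 0.211 in preGM fl/p30 and 0.165 in preGM +/+, while the model shares 1 estimate. Alternatives were each array left out, the compared groups' arrays alone, the mean of all probe sets, dim genes left out, trend and robust moderation, array weights, median centring, a log2 difference of at least 1 and the animal as a block.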

Additional observations from a re-analysis of the deposited data

How the results depend on the processing

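Over 1289 recomputed differences of single members, 1205 kept their direction and side of the threshold, 36 lost and 21 gained the threshold, and 27 changed sign; of 324 recomputed counts of called members, 289 stayed within 1.5 times and 35 did not. The number of arrays, 3 per group, limits what these comparisons can show, and the causes of the changes were not tested. Fitted on the arrays of the compared groups alone, 0 members were higher and 0 lower in both GMP comparisons, and 0 lower between the controls. With array weights 2 members were lower in GMP fl/p30, 4 higher in GMP than preGM fl/p30, 2 lower between the controls and 3 higher in the interaction; 2 differences changed sign, Ctss from preGM to GMP fl/p30 (-0.21) and the interaction of Clec4e (-0.0093). With trend and robust moderation Ly86 was lost in preGM fl/p30 (adjusted p = 0.0649). With each array centred on its median, 0 members were higher in preGM fl/p30. With the animal as a random replicate block, 2 members were higher in GMP than preGM fl/p30 in place of 0, Ly86 was lost in preGM fl/p30, and no other call of a member changed; the fixed replicate block called 0. With 1 array left out, the counts lay between 1 and 3 lower for GMP fl/p30, 0 and 1 higher and 0 and 1 lower for GMP fl/BRM2, 0 and 1 higher and 2 and 4 lower for preGM fl/p30, 0 and 3 higher from preGM to GMP fl/p30, 0 and 3 lower between the controls, and 0 and 1 higher in the interaction.

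None of the differences that changed sign with 1 array left out was called. They lay between -1.58 and 0.25 for Ly86, -0.80 and 0.30 for Ctss, -0.92 and 0.0089 for Lyz2 and -0.28 and 1.25 for Adgre1 in GMP fl/p30 minus GMP fl/+, and between -0.74 and 0.36 for Ctss in GMP fl/BRM2 minus GMP fl/+. In GMP fl/p30 minus GMP fl/BRM2 they lay between -1.15 and 0.024 for F13a1, -0.61 and 1.22 for Ly86, -0.40 and 0.14 for Ctss, -0.94 and 0.35 for Ms4a6c, -0.40 and 0.52 for Lyz2, -0.11 and 0.29 for Clec4e, and -0.51 and 1.10 for Olr1. From preGM to GMP fl/p30 they lay between -0.29 and 0.26 for Ctss and -0.71 and 0.22 for Lyz2, and in the interaction between -0.51 and 0.66 for Clec4e. Over all genes, the calls numbered 1209 in GMP fl/p30 (172 with the compared groups alone, 4063 with array weights, 482 at a log2 difference of at least 1, and 537 to 3078 with 1 array left out), 505 in GMP fl/BRM2 (131, 2187, 274, and 134 to 2218) and 334 in preGM fl/p30 (1070, 1167, 173, and 101 to 471). They numbered 128 from preGM to GMP fl/p30 (29, 1948, 76, and 26 to 249, with 681 and 71 under the random and fixed replicate blocks) and 2036 between the controls (746, 4660, 450, and 636 to 4686). For GMP fl/p30 minus GMP fl/BRM2 there was 1 (0, 283, 1, and 0 to 12), and in the interaction 1 (4, 1991, 1, and 0 to 1482, with 29 after median centring and 76 under the random block).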
